A study of Mus musculus with 18 samples.

Results

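Fc receptors bind the constant (Fc) part of antibodies and are the means by which dendritic cells take up, sense and recycle IgG. The 6 genes described here were found by their symbols among the 16614 genes of the deposited table, namely Fcgr1 (gene ID 14129), Fcgr3 (14131), Fcgr4 (246256), Fcer1g (14127), Fcgr2b (14130) and Fcgrt (14132). Each had 1 row in the table. All 6 passed the filter on low counts, which kept 11989 genes.

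RNA was sequenced from 18 libraries of mouse dendritic cells grown from bone marrow in 20 ng/ml GM-CSF plus 100 ng/ml Flt3L. After 7 to 10 days they were purified on XCR1, which marks conventional dendritic cells of type 1 (cDC1). The title of the series names the balance of STAT5 and STAT3 as its subject. The groups were KO cells with LPS (5 libraries), WT cells with LPS (5), KO Control cells (4) and WT Control cells (4). LPS is lipopolysaccharide, the component of Gram-negative bacteria that Toll-like receptor 4 detects. The labels name neither the deleted gene nor the driver of the deletion, so no targeted gene could be checked, and they give no LPS dose or time. They do not say which libraries came from flow sorting and which from magnetic beads, both of which were used, or whether replicates came from separate animals or cultures. The p-values therefore measure the spread between libraries, which may be technical.

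In mice, Fcgr1 (CD64, the high-affinity IgG receptor), Fcgr3 (CD16) and Fcgr4 encode the IgG-binding chains of the activating receptors, which signal through the ITAM of a shared adaptor, the FcR gamma chain encoded by Fcer1g. Fcgr2b encodes the inhibitory receptor, whose ITIM recruits the phosphatase SHIP1 and dampens ITAM signals from the same immune complexes. Fcgrt encodes the heavy chain of the neonatal receptor FcRn, which pairs with beta-2-microglobulin in endosomes, returns IgG to the cell surface and aids the presentation of antigen carried by immune complexes.

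Library totals lay between 25590104 and 27375189 estimated counts. Levels are given as CPM, a gene's counts set against the library's total, scaled with TMM factors, which correct for a shift of the RNA pool towards a few abundant genes, and these factors averaged 0.769 in KO LPS, 0.814 in WT LPS, 1.32 in KO Control and 1.36 in WT Control libraries. The cDC1 markers Xcr1, on which the cells were selected, and Clec9a were present in every group, with mean levels of 281 and 357 CPM in KO LPS, 428 and 376 CPM in WT LPS, 109 and 273 CPM in KO Control and 175 and 267 CPM in WT Control. Of 14 listed cDC1 markers, 6 rose and 6 fell with LPS in KO (of all genes tested, 40.0% and 46.2%, edgeR adjusted p under 0.05). In WT, 5 rose and 7 fell (40.7% and 44.7%). Under LPS, 1 was higher and 6 were lower in KO than in WT (5.30% and 5.50%). Itgae averaged 38.7 CPM in KO LPS, 58.5 CPM in WT LPS, 226.5 CPM in KO Control and 269 CPM in WT Control. All 16 listed markers of monocytes and macrophages, cells that express these receptors strongly, had counts too. Their summed level was 1903 to 2973 CPM in KO LPS, 2109 to 3208 CPM in WT LPS, 2565 to 2912 CPM in KO Control and 2388 to 2611 CPM in WT Control libraries. Replicate 2 of KO LPS and replicate 2 of WT LPS, whose library names carry the numbers 7 and 5, stood apart from the rest of their groups in this sum, at 2973 and 3208 CPM against at most 2211 and 2468 CPM in the others. Without Lyz2 and Apoe, the sums of these libraries were 626 and 770 CPM, the highest of their groups. Those of Control libraries were 850 to 908 CPM in KO and 751 to 857 CPM in WT. These sums take in Ccr2, which averaged 59.5 CPM in KO LPS and 495 CPM in KO Control. In WT, Ccr2 averaged 82.6 CPM with LPS and 446 CPM in Control. Neutrophil markers were raised in 2 libraries, at 90.4 CPM in WT LPS replicate 5 and 31.2 CPM in WT Control replicate 4, and reached at most 4.40 CPM in every other. Fcer1a and Ms4a2, which encode the alpha and beta chains of the high-affinity IgE receptor of mast cells and basophils, had at most 1 count in any library. In bulk RNA, fewer cells of a type and less RNA per cell cannot be told apart.

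The promoters of 4 members are shown, Fcgr1 and Fcgr4, which rose with LPS in both genotypes, and Fcgr2b and Fcgrt, which fell in both. Fcer1g, which also rose in both with TMM factors, is not shown, and its window held none of the motifs searched. All 6 members matched the RefSeq promoter table, which holds 300 bases per start site, 250 before and 50 after it, on build GRCm38.p6. The letters of 3 short motifs were searched on both strands.
Fcgr1: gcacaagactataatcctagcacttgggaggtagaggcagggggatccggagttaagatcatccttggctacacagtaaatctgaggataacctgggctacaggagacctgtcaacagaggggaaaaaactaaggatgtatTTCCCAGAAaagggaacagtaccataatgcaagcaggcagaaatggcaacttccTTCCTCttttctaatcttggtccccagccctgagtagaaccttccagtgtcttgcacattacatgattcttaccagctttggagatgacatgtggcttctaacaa
Fcgr4: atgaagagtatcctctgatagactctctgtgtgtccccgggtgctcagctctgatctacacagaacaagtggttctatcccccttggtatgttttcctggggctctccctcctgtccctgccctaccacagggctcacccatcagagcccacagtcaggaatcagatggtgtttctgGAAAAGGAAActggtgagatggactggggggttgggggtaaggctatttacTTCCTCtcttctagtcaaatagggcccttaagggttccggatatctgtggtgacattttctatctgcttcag
Fcgr2b: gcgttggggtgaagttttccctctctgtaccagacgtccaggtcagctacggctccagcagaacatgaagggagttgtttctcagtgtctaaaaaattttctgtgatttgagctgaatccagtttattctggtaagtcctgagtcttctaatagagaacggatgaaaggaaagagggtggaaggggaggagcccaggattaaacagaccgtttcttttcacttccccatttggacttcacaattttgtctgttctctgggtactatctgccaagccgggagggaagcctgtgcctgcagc
Fcgrt: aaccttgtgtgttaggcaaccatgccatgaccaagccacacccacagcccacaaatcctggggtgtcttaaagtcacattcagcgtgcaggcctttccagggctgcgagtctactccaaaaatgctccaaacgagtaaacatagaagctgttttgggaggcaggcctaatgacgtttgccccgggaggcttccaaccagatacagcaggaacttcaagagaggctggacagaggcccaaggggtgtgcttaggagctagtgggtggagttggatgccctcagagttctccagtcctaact
These are the windows chr3:96293920-96294219 (Fcgr1, minus strand), chr1:171018676-171018975 (Fcgr4, plus strand), chr1:170976022-170976321 (Fcgr2b, minus strand) and chr7:45103773-45104072 (Fcgrt, minus strand), each written 5′ to 3′ on the gene's strand with motif matches in capitals. TTCNNNGAA, the pattern of the gamma-activated site bound by STAT factors, was found in Fcgr1 and is present in 8.3% of 32851 promoters. The core of the interferon-stimulated response element, GAAA repeated after 2 bases of any kind, was found in Fcgr4 and is present in 3.44% of promoters. GAGGAA, a core bound by ETS factors such as PU.1, was found on the opposite strand, as TTCCTC, in Fcgr1, Fcgr4 and Fcgr3 and is present in 28.3% of promoters. No match overlapped another. The windows of Fcer1g, Fcgr2b and Fcgrt held none of the 3 patterns, which says only that these letters are absent there.

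The comparison of LPS with Control cells shows how stimulation shifted these transcripts in each genotype. Fcgr1 and Fcgr4, encoding activating receptors, rose in both genotypes, and Fcgr1 rose most, by 9.99-fold in KO and 17.2-fold in WT. Fcgr2b, encoding the inhibitory receptor, fell, and Fcgrt fell most, 16.4-fold in KO and 10.2-fold in WT. Fcer1g rose 1.66-fold in KO and 2.49-fold in WT. Scaled by library totals, its log2 fold change turned to -0.05 in KO and was 0.56 in WT. Of the 6 members, 3 rose and 2 fell in KO, where 40.0% of all genes tested rose and 46.2% fell (edgeR quasi-likelihood test, Benjamini-Hochberg adjusted p under 0.05). The same counts, 3 and 2, were found in WT, where 40.7% of genes rose and 44.7% fell. With 86.2% of genes called in KO and 85.5% in WT, the number of members called is near the background. LPS and Control libraries did not overlap for 5 of 6 members in KO, against 81.8% of genes, and for 4 of 6 in WT, against 77.9% of genes. The members' median log2 fold change was 0.12 in KO and 0.61 in WT, against -0.10 and -0.06 for all genes. Scaled by library totals, with no TMM factors, the median of all genes moved by -0.78 in KO and -0.74 in WT, and calls of a higher level made up 22.3% of all calls in KO and 22.1% in WT, against 46.4% and 47.7% with TMM factors.

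**Figure D1:**
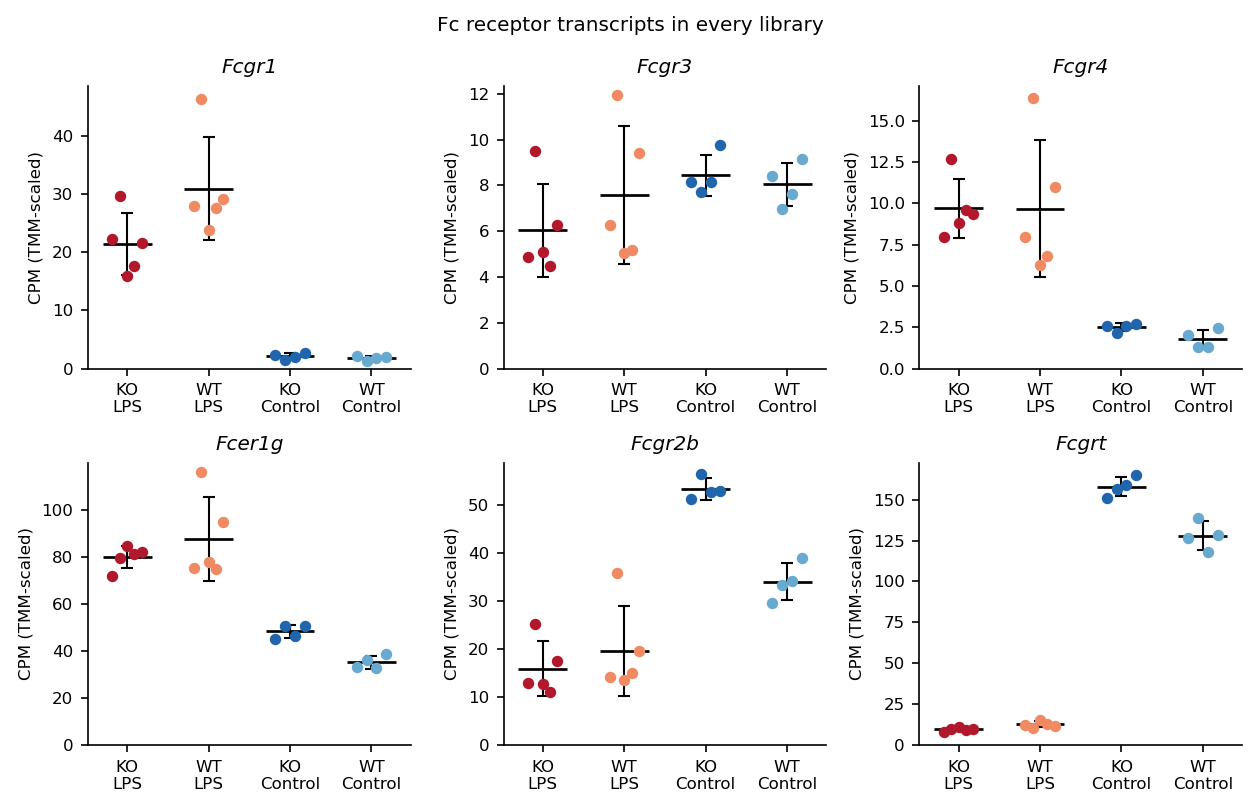
Each panel plots 1 gene's level in CPM (TMM-scaled, axis from 0) in every library of KO LPS (5 points), WT LPS (5), KO Control (4) and WT Control (4). Lines are means and bars are 1 SD. Fcgr1 and Fcgr4 are higher in every LPS library than in any Control library, and Fcgrt is lower in every LPS library, at 7.88 to 15.4 CPM against 118 to 165 CPM.

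Fcgr1 encodes the only activating receptor of the mouse that binds monomeric IgG with high affinity. Its level was 22.2, 29.7, 15.9, 17.5 and 21.6 CPM in KO LPS libraries and 27.9, 46.3, 23.8, 27.5 and 29.1 CPM in WT LPS libraries. In Control libraries it was 2.34, 1.55, 2.05 and 2.62 CPM in KO and 2.07, 1.32, 1.75 and 2.04 CPM in WT. Every LPS library lay far above every Control library, and replicate 2 was the highest within both LPS groups. The log2 fold change with LPS was 3.32 ± 0.23 (SE) in KO (edgeR adjusted p = 3.2e-11) and 4.10 ± 0.23 in WT (adjusted p = 1.8e-12).

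Fcgr4 encodes an activating receptor of intermediate affinity, which in mice binds IgG2a and IgG2b. It lay at 7.99, 12.7, 8.79, 9.62 and 9.37 CPM in KO LPS libraries and at 7.97, 16.3, 6.27, 6.80 and 11.0 CPM in WT LPS libraries. The Control libraries held 2.56, 2.14, 2.58 and 2.67 CPM in KO and 2.02, 1.32, 1.31 and 2.45 CPM in WT. LPS and Control libraries did not overlap in either genotype, while the highest and the lowest LPS level both came from WT. The increase was 1.96 ± 0.25 on the log2 scale in KO (3.89-fold, edgeR adjusted p = 4.2e-07) and 2.44 ± 0.26 in WT (5.41-fold, adjusted p = 3.5e-08).

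Fcgr3 encodes the low-affinity activating receptor and behaved unlike the other activating chains. Its level was 4.86, 9.50, 5.09, 4.46 and 6.26 CPM in KO LPS, and 6.27, 12.0, 5.05, 5.18 and 9.41 CPM in WT LPS libraries. In Control libraries it was 8.14, 7.73, 8.14 and 9.75 CPM in KO and 8.41, 6.98, 7.64 and 9.17 CPM in WT. The LPS and Control libraries overlapped in both genotypes, through replicate 2 in KO and replicates 2 and 5 in WT. WT LPS replicate 5 was also the library with neutrophil markers at 90.4 CPM, whose part was not tested. The log2 fold change did not pass in KO (-0.48 ± 0.23, edgeR adjusted p = 0.055, 95% interval -0.96 to -0.01) or in WT (-0.10 ± 0.22, adjusted p = 0.69, 95% interval -0.56 to 0.37). Without both replicates 2 it was -0.69 in KO (adjusted p = 0.00053) and -0.33 in WT (adjusted p = 0.049). Scaled by library totals, it was -1.26 in KO (adjusted p = 1.3e-05) and -0.86 in WT (adjusted p = 0.00072), where the median of all genes was -0.88 in KO and -0.80 in WT. In KO it also passed with limma-voom (-0.53, adjusted p = 0.027) and when the KO groups were fitted alone (-0.46, edgeR adjusted p = 0.022).

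Fcer1g encodes the FcR gamma chain, which the activating receptors need for surface expression and signalling. It lay at 71.8, 79.6, 84.7, 81.0 and 82.0 CPM in KO LPS and at 75.0, 116, 77.9, 74.6 and 94.5 CPM in WT LPS libraries. In Control libraries it was 45.2, 50.7, 46.3 and 50.7 CPM in KO and 33.3, 36.0, 32.8 and 38.7 CPM in WT. Each LPS library was above each Control library, and the KO Control libraries were all above the WT Control libraries. The log2 fold change with LPS was 0.73 ± 0.11 in KO (edgeR adjusted p = 2.3e-06) and 1.31 ± 0.11 in WT (adjusted p = 5.5e-10). With library totals it was -0.05 in KO and 0.56 in WT.

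Fcgr2b encodes the inhibitory receptor. Its level was 12.9, 25.3, 12.8, 11.1 and 17.4 CPM in KO LPS and 14.2, 36.0, 13.5, 15.1 and 19.7 CPM in WT LPS libraries. The Control libraries had 51.4, 56.6, 52.7 and 53.0 CPM in KO and 29.6, 33.4, 34.2 and 39.0 CPM in WT. All KO LPS libraries were below all KO Control libraries, whereas WT LPS replicate 2 lay among the WT Control libraries. The log2 fold change was -1.75 ± 0.24 in KO (3.36-fold lower, edgeR adjusted p = 1.1e-06) and -0.80 ± 0.24 in WT (1.74-fold lower, adjusted p = 0.0042). Without WT LPS replicate 2 the WT value was -1.13 (adjusted p = 3.3e-06).

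Fcgrt encodes the heavy chain of FcRn. It was 7.88, 9.99, 10.9, 9.47 and 9.97 CPM in KO LPS libraries and 12.1, 10.6, 15.4, 13.1 and 11.7 CPM in WT LPS libraries. Its Control levels were 151, 156, 159 and 165 CPM in KO and 127, 139, 118 and 129 CPM in WT. The LPS libraries lay far below the Control libraries, with less spread than the Fc gamma receptors, and WT LPS replicate 2 was the lowest of its group here. The log2 fold change was -4.03 ± 0.09 in KO (edgeR adjusted p = 1.6e-18) and -3.34 ± 0.09 in WT (adjusted p = 1.4e-17). B2m, encoding the light chain of FcRn and of MHC class I, moved the other way, with means of 1748 CPM in KO LPS against 367 CPM in KO Control and 1604 CPM in WT LPS against 312 CPM in WT Control. Its log2 fold change was 2.25 ± 0.10 in KO (edgeR adjusted p = 1.7e-14) and 2.36 ± 0.10 in WT (adjusted p = 1.0e-14).

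**Figure D2:**
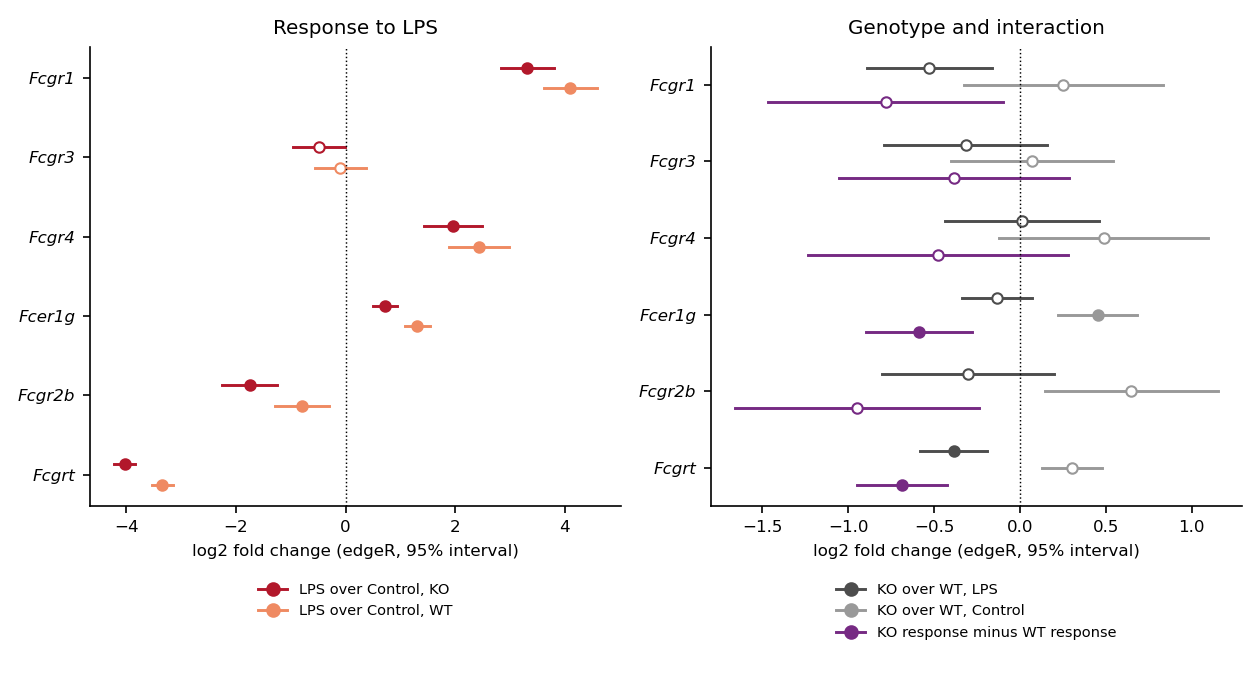
The left panel plots the log2 fold change of each member with LPS over Control in KO and in WT, and the right panel plots KO over WT with LPS, KO over WT in Control, and the KO response minus the WT response, each with its 95% interval from edgeR. Filled points passed at an adjusted p under 0.05. Fcgr1 (3.32 and 4.10) and Fcgrt (-4.03 and -3.34) lie farthest from 0 in the left panel. In the right panel the filled points are Fcgrt with LPS, Fcer1g in Control, and Fcer1g and Fcgrt in the difference of responses. Scaled by library totals, the values of Fcer1g in the left panel would be -0.05 in KO and 0.56 in WT.

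Levels of different genes can be set side by side per length, as TPM, which divides each gene's reads by its length and gives every library the same sum. Fcer1g was the most abundant member in every group, with means of 262 TPM in KO LPS, 295 TPM in WT LPS, 249 TPM in KO Control and 199 TPM in WT Control. With LPS, the other 5 members lay close together. In KO LPS the mean order was Fcgr2b (16.9 TPM), Fcgr4 (12.1), Fcgr1 (11.1), Fcgrt (7.98) and Fcgr3 (6.80), and in WT LPS it was Fcgr2b (21.2 TPM), Fcgr1 (16.5), Fcgr4 (12.3), Fcgrt (10.8) and Fcgr3 (8.71). Neighbours in these orders overlapped between libraries, apart from Fcer1g and the gene below it.

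In Control cells the same genes were spread over a far wider range. The mean order was Fcer1g, Fcgrt (205 TPM), Fcgr2b (83.1), Fcgr3 (14.9), Fcgr4 (4.88) and Fcgr1 (1.74) in KO Control. It was Fcer1g, Fcgrt (181 TPM), Fcgr2b (58.2), Fcgr3 (15.5), Fcgr4 (3.80) and Fcgr1 (1.60) in WT Control. Only Fcer1g (183 to 218 TPM) and Fcgrt (174 to 194 TPM) in WT Control overlapped among neighbours there; in KO Control these genes lay at 240 to 262 TPM and 199 to 211 TPM.

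Ratios of TPM within a library describe the balance of activating and inhibitory chains and carry no test. Fcgr1 over Fcgr2b had a median of 0.610 in KO LPS and 0.865 in WT LPS libraries, against 0.0220 in KO Control and 0.0271 in WT Control libraries. Fcgr4 over Fcgr2b had medians of 0.728 in KO LPS and 0.551 in WT LPS, against 0.0624 in KO Control and 0.0626 in WT Control. For Fcgr3 over Fcgr2b the medians were 0.397 in KO LPS, 0.400 in WT LPS, 0.178 in KO Control and 0.258 in WT Control. Each of these ratios was higher in every LPS library than in any Control library of its genotype, and Fcgr2b exceeded each activating chain in every library but 1 of KO LPS, where Fcgr4 over Fcgr2b was 1.02. Fcer1g over the sum of the 3 activating chains overlapped between LPS and Control, with medians of 8.93 in KO LPS, 7.92 in WT LPS, 11.1 in KO Control and 9.19 in WT Control. Fcgrt over B2m had medians of 0.00212 in KO LPS and 0.00323 in WT LPS, against 0.166 in KO Control and 0.154 in WT Control.

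**Figure D3:**
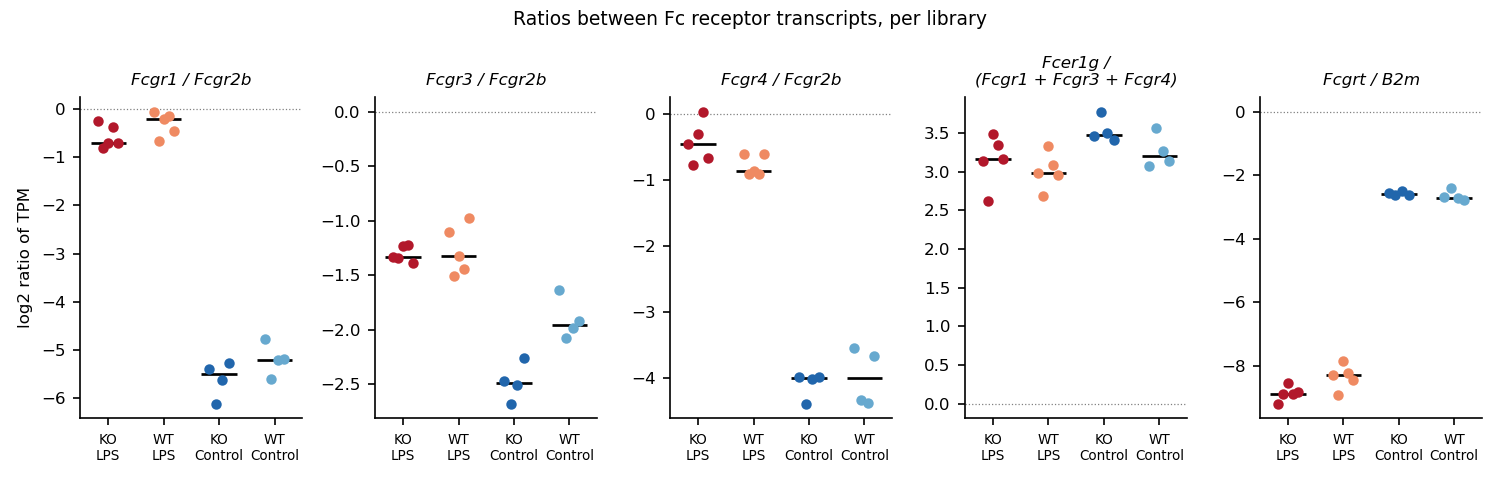
Each panel plots the log2 ratio of TPM of the genes named above it in every library of KO LPS, WT LPS, KO Control and WT Control, with lines at the medians and a dotted line at equal levels. Activating over inhibitory ratios are higher with LPS (median ratio of Fcgr1 to Fcgr2b 0.610 in KO LPS against 0.0220 in KO Control), and Fcgrt over B2m is lower (0.00212 against 0.166).

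The comparison of KO with WT cells under LPS asks whether the genotypes differed once stimulated. Fcgrt was lower in KO LPS libraries, at 9.64 ± 1.10 CPM against 12.6 ± 1.82 CPM in WT LPS libraries (SD, n = 5 each), a log2 fold change of -0.39 ± 0.09 (SE, edgeR adjusted p = 0.011). The ranges overlapped, since KO LPS replicate 3 at 10.9 CPM lay above WT LPS replicate 2 at 10.6 CPM. It was the only member called, 1 of 6, where 10.8% of genes tested were called, 5.50% lower and 5.30% higher in KO. No member's groups were apart, against 6.51% of genes. Scaled by library totals, 23.0% of all calls were higher, against 49.1% with TMM factors. When the model was fitted to the LPS libraries alone, Fcgrt did not pass (adjusted p = 0.068) and no member did, although 2 had an unadjusted p under 0.05.

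Fcgr1 averaged 21.4 ± 5.38 CPM in KO LPS and 30.9 ± 8.83 CPM in WT LPS libraries. Its log2 fold change of -0.53 ± 0.17 missed the threshold (edgeR adjusted p = 0.057), and KO LPS replicate 2 lay above 4 of the 5 WT libraries. It passed without KO LPS replicate 2 (-0.68, adjusted p = 0.014), without WT LPS replicate 3 (adjusted p = 0.039), without both replicates 2 (-0.48, adjusted p = 0.0042), and with library totals (-0.60, adjusted p = 0.019). It did not pass without WT LPS replicate 2, where it was smaller (-0.34, edgeR adjusted p = 0.071), with RLE factors (adjusted p = 0.070) or with the LPS libraries fitted alone (adjusted p = 0.14).

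The other members gave no call under LPS. Fcgr4 averaged 9.70 ± 1.80 CPM in KO LPS and 9.67 ± 4.15 CPM in WT LPS libraries, with a log2 fold change of 0.01 and a 95% interval of -0.44 to 0.46 (edgeR adjusted p = 0.98). Fcer1g averaged 79.8 ± 4.85 CPM in KO LPS and 87.6 ± 17.8 CPM in WT LPS (-0.13 ± 0.10, edgeR adjusted p = 0.42). Without both replicates 2 its value was 0.002. Fcgr2b averaged 15.9 ± 5.75 CPM in KO LPS and 19.7 ± 9.42 CPM in WT LPS (-0.30 ± 0.24, edgeR adjusted p = 0.46), and its sign turned, to 0.03, without WT LPS replicate 2. Fcgr3 averaged 6.03 ± 2.05 CPM in KO LPS and 7.57 ± 3.01 CPM in WT LPS (-0.32 ± 0.23, edgeR adjusted p = 0.40), with values of -0.10 without WT LPS replicate 2 and -0.54 without KO LPS replicate 2.

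The comparison of KO with WT Control cells asks whether the genotypes differed before stimulation. In KO Control cells all 6 members had a positive log2 fold change over WT Control, with a median of 0.38 against 0.02 for all genes. For Fcgr3 the value was 0.07 ± 0.23 and turned to -0.01 without KO Control replicate 4. Its mean TPM was lower in KO Control (14.9) than in WT Control (15.5). Of the 6 members, 1 passed, where 2.41% of genes tested were called, 1.89% higher and 0.525% lower in KO. That member was Fcer1g, at 48.2 ± 2.90 CPM in KO Control against 35.2 ± 2.72 CPM in WT Control (SD, n = 4 each), a log2 fold change of 0.45 ± 0.11 (SE, edgeR adjusted p = 0.033). The call was lost with RLE in place of TMM factors (adjusted p = 0.052) and without any of WT Control replicates 1, 2 and 3 and KO Control replicates 2, 3 and 4 (adjusted p up to 0.145).

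Fcgr2b and Fcgrt were also higher in every KO Control library than in any WT Control library, so the groups were apart for 3 of 6 members, where 9.22% of genes tested were apart in that direction and 14.7% in either. Fcgr2b averaged 53.4 ± 2.24 CPM in KO Control and 34.1 ± 3.84 CPM in WT Control (0.65 ± 0.24, edgeR adjusted p = 0.20). Fcgrt averaged 158 ± 5.89 CPM in KO Control and 128 ± 8.70 CPM in WT Control (0.30 ± 0.08, edgeR adjusted p = 0.065). Neither passed in the fit of all libraries. Without WT LPS replicate 2, which enters this comparison only through the spread that all groups share, both passed, Fcgr2b with an adjusted p of 0.012 and Fcgrt with 0.010 at the same fold changes. Fcgr1 (0.25 ± 0.28, edgeR adjusted p = 0.78), Fcgr3 (0.07 ± 0.23, adjusted p = 0.94) and Fcgr4 (0.49 ± 0.29, adjusted p = 0.50) overlapped between the genotypes.

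The interaction test asks whether the response to LPS differed between KO and WT cells; it uses the same libraries as the comparisons above. It called 2 of 6 members, both with a more negative response in KO, where 3.82% of genes tested were called, 2.79% with a more negative and 1.03% with a more positive response. For Fcgrt the KO response of -4.03 differed from the WT response of -3.34 by -0.69 ± 0.13 (edgeR adjusted p = 0.0035), and the call held without each of the 18 libraries in turn (adjusted p up to 0.012). For Fcer1g the KO response of 0.73 differed from the WT response of 1.31 by -0.59 ± 0.15 (edgeR adjusted p = 0.031). With library totals the responses were -0.05 in KO and 0.56 in WT, a difference of -0.61 (edgeR adjusted p = 0.0091). The call of Fcer1g was lost with RLE factors (adjusted p = 0.053) and in 10 of 18 fits that left out a library (adjusted p up to 0.085). With RLE factors 42.9% of all interaction calls were positive, against 27.1% with TMM factors.

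All 6 members had a negative difference of responses, with a median of -0.64 against -0.05 for all genes. Fcgr2b differed by -0.95 ± 0.34 (edgeR adjusted p = 0.13), Fcgr1 by -0.78 ± 0.33 (adjusted p = 0.20), Fcgr4 by -0.48 ± 0.36 (adjusted p = 0.51) and Fcgr3 by -0.38 ± 0.32 (adjusted p = 0.55), so none of these passed. Without WT LPS replicate 2 the differences were smaller, at -0.62 for Fcgr2b (edgeR adjusted p = 0.085), -0.21 for Fcgr4 and -0.16 for Fcgr3. Without both replicates 2, Fcgr2b (-0.82, edgeR adjusted p = 0.0037) and Fcgr1 (-0.71, adjusted p = 0.038) also passed.

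In both LPS groups, Fcgr1, Fcgr3, Fcgr4 and Fcgr2b were highest in replicate 2, the library with the highest monocyte and macrophage marker sum. No correlation of levels with that sum was computed. Replicate 2 was the highest WT LPS library for 5 of 6 members and the highest KO LPS library for 4 of 6. Fcer1g in KO LPS was highest in replicate 3, at 84.7 CPM, where the marker sum was 1939 CPM. The macrophage genes Adgre1, Apoe, C1qa, Cd14 and Csf1r were also highest in replicate 2 of both groups. Among the 4 other KO LPS libraries, Fcgr1 lay at 15.9 to 22.2 CPM and Fcgr2b at 11.1 to 17.4 CPM. Among the 4 other WT LPS libraries, Fcgr1 lay at 23.8 to 29.1 CPM and Fcgr2b at 13.5 to 19.7 CPM. Plotted per library, Fcgr3 went with the marker sum over LPS and Control libraries alike, and Fcgrt did not follow it within the LPS groups. Between the genotypes in Control, the marker sums were 2565 to 2912 CPM in KO and 2388 to 2611 CPM in WT, and none of the 15 markers tested was called by edgeR (2 had an unadjusted p under 0.05) or by limma-voom. Without both replicates 2, edgeR called 3 of the 15 higher in KO, where 822 of all genes were called against 289 with every library. WT Control replicate 4, with neutrophil markers at 31.2 CPM, was the highest of its group for Fcgr3, Fcgr4, Fcer1g and Fcgr2b, but not for Fcgr1 or Fcgrt. The part of monocytes, macrophages and neutrophils in the results above was not tested.

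**Figure D4:**
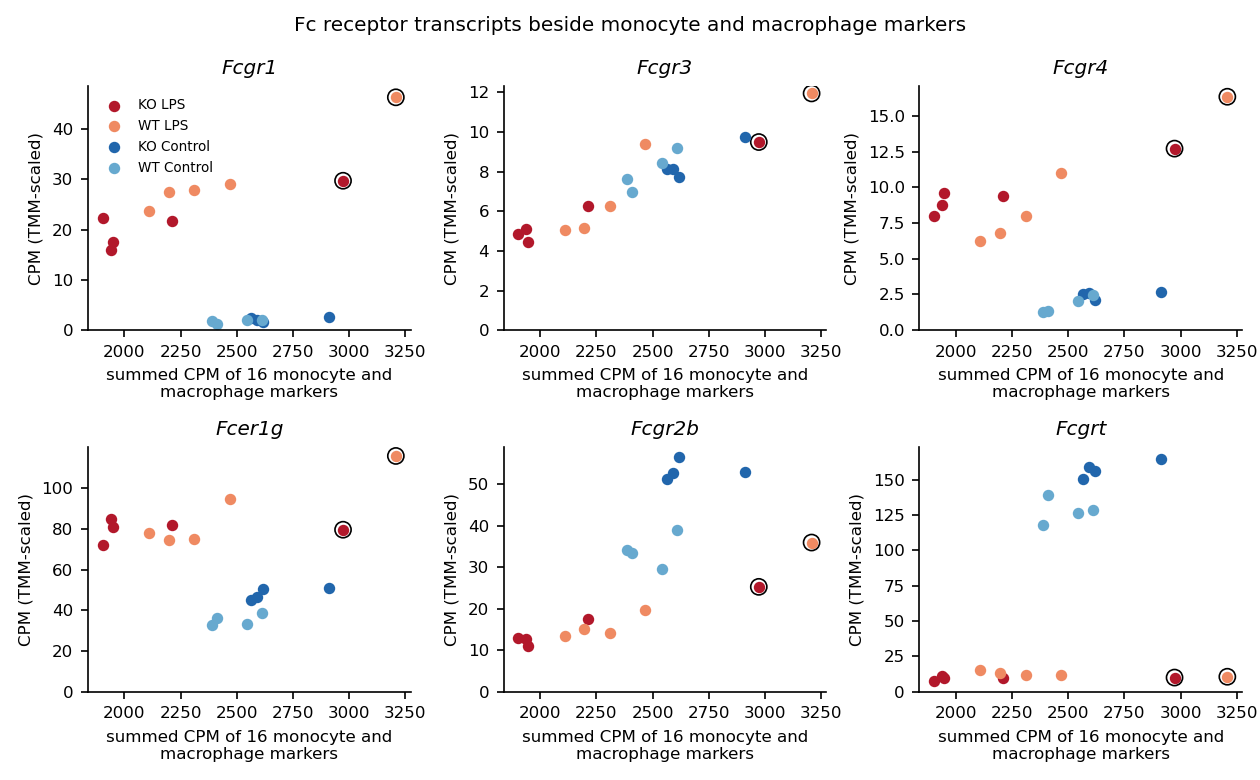
Each panel plots 1 member's level in CPM (TMM-scaled, vertical axis from 0) against the summed CPM of 16 monocyte and macrophage markers in the same library, with 1 point per library coloured by group and replicate 2 of KO LPS and of WT LPS ringed. The ringed libraries lie far to the right of their groups (2973 and 3208 CPM) and are high for Fcgr1, Fcgr3, Fcgr4 and Fcgr2b but not for Fcgrt.

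Deviations from the group means describe how members varied together beyond the groups, over 18 libraries of similar depth. Fcgr2b and Fcgr3 had a Pearson correlation of 0.91, Fcgr3 and Fcgr4 of 0.87, and Fcgr1 and Fcgr3 of 0.80, while Fcgrt had negative values with all 5 others, from -0.49 with Fcgr1 to -0.22 with Fcer1g. These values take in replicate 2 of KO LPS and of WT LPS, the highest of their groups for the 4 Fc gamma receptors. For Fcgr2b they lay at 25.3 and 36.0 CPM against at most 17.4 and 19.7 CPM in the others. Correlations without these 2 libraries were not computed. Of 50-base windows of Fcgr3 transcripts, 10.2% were also found in Fcgr2b. At 150 bases, the read length of these libraries, no window of any member was found in another gene. How many reads fit both genes was not counted.

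Among 9113 genes of at least 5 CPM, those whose log2 level was most like that of Fcgr1 over 18 libraries were Cd200, Casp1 and Ms4a6d (Pearson 0.995 or more). For Fcgrt they were Dok3, Otulinl and Cerk (0.998 each), for Fcgr4 Acp5, Ccl5 and Jag1 (0.984 to 0.986) and for Fcer1g Mif, Aldoa and Epsti1 (0.975 to 0.981). For Fcgr2b they were Slc25a37, Ly86 and Erlin1 (0.952 to 0.955) and for Fcgr3 Atp6v0d2, Ctsa and Fabp4 (0.88 to 0.90). These correlations take in differences between the groups. By deviations from group means, the most like genes were Clec7a for Fcgr1 (0.94), Acp5 and Apoe for Fcgr3 (0.95 each), Ramp3 and C1qa for Fcgr4 (0.95 and 0.93), Gbp8 for Fcer1g (0.91), Tgm2 and Lcp2 for Fcgr2b (0.97 each) and Fuca1 for Fcgrt (0.94).

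Other receptors that use the FcR gamma chain were described in the same way. Of 7 tested partners, 6 rose in KO, where 40.0% of all genes rose, and 7 in WT, where 40.7% rose, against 6 in each with library totals, and none was called lower. Their median log2 fold change was 1.83 in KO and 1.78 in WT, against -0.10 and -0.06 for all genes, with which the medians of the lists that follow compare. With library totals, 22.3% of all calls in KO and 22.1% in WT were of a higher level, with which each list's counts under that scaling compare. Clec4e (Mincle, a receptor for mycobacterial and damaged-cell lipids) averaged 22.2 CPM in KO LPS against 0.104 CPM in KO Control and 27.1 CPM in WT LPS against 0.0687 CPM in WT Control. Its log2 fold change was 7.67 ± 0.44 in KO (edgeR adjusted p = 2.1e-12) and 8.53 ± 0.46 in WT (adjusted p = 9.2e-13). Pira1 and Pira2, paired immunoglobulin-like receptors, rose by 1.83 and 1.96 in KO, and Pira2 was higher in KO LPS than in WT LPS (272 against 203 CPM, 0.42 ± 0.08, edgeR adjusted p = 0.0017). Of the 7 partners, 1 was higher and 0 lower in KO under LPS (of all genes, 5.30% and 5.50%). Pira genes are near-identical copies, so their reads may be split uncertainly.

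Of 12 tested ITAM adaptors and kinases, 7 rose and 2 fell in KO, where 40.0% of all genes rose and 46.2% fell, and 9 rose and 1 fell in WT, where 40.7% rose and 44.7% fell, against 6 and 4 in both genotypes with library totals. The median log2 fold change was 0.96 in KO and 0.88 in WT. Between the genotypes under LPS, 1 of the 12 was higher and 1 lower in KO (of all genes, 5.30% and 5.50%). In Control 1 was higher and 0 lower (1.89% and 0.525%). The response was more positive in KO for 1 and more negative for 1 (1.03% and 2.79%). Syk, the kinase that docks on the phosphorylated ITAM, averaged 559 CPM in KO LPS against 170 CPM in KO Control and 419 CPM in WT LPS against 169 CPM in WT Control. It was higher in KO under LPS (0.42 ± 0.06, edgeR adjusted p = 1.5e-04), and its response was larger in KO (0.41 ± 0.09, adjusted p = 0.019). Fgr, a Src-family kinase of myeloid cells, went the other way, at 45.9 CPM in KO LPS against 87.9 CPM in WT LPS (-0.94 ± 0.04, edgeR adjusted p = 3.8e-11) and 68.8 CPM in KO Control against 56.5 CPM in WT Control (0.28 ± 0.05, adjusted p = 0.0016). The kinase Src rose in both genotypes (2.92 ± 0.19 in KO and 3.14 ± 0.20 in WT, edgeR adjusted p = 1.7e-11 and 7.7e-12). Tyrobp (DAP12), the other ITAM adaptor of myeloid cells, had a log2 fold change with LPS of 0.01 ± 0.08 in KO (edgeR adjusted p = 0.90) and 0.24 ± 0.08 in WT (adjusted p = 0.0093), which turned to -0.77 and -0.51 with library totals.

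Downstream of Syk, 18 of 25 tested effectors rose and 7 fell in KO, and 18 rose and 6 fell in WT (of all genes, 40.0% and 46.2% in KO and 40.7% and 44.7% in WT), against 12 and 11 in KO and 11 and 11 in WT with library totals. The median was 0.73 in KO and 0.85 in WT. Under LPS, 2 of the 25 were higher and 2 lower in KO than in WT (of all genes, 5.30% and 5.50%). Cybb, the catalytic subunit of the phagocyte NADPH oxidase, averaged 308 CPM in KO LPS against 14.3 CPM in KO Control and 291 CPM in WT LPS against 15.6 CPM in WT Control. Vav1, a guanine nucleotide exchange factor, was lower in KO LPS than in WT LPS (308 against 426 CPM, -0.47 ± 0.04, edgeR adjusted p = 8.0e-08). Prkcd (0.35 ± 0.06, adjusted p = 0.00037), a protein kinase C, and Pik3r1 (0.58 ± 0.13, adjusted p = 0.0049), a regulatory subunit of PI3-kinase, were higher in KO under LPS. The adaptor Lat2 fell with LPS in KO by 2.73 on the log2 scale.

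Of 15 tested inhibitory genes that work beside Fcgr2b, 6 rose and 5 fell in KO, where 40.0% of all genes rose and 46.2% fell. In WT 7 rose and 6 fell, where 40.7% of all genes rose and 44.7% fell. With library totals the counts were 5 and 10 in KO and 5 and 9 in WT. The median of the list was -0.0055 in KO and -0.0436 in WT. Under LPS, 1 of the 15 was higher and 1 lower in KO than in WT (of all genes, 5.30% and 5.50%). Lilrb4a, an ITIM receptor, averaged 398 CPM in KO LPS against 17.4 CPM in KO Control and 399 CPM in WT LPS against 19.1 CPM in WT Control. The adaptor Dok3 fell in both genotypes (-4.36 ± 0.12 in KO and -3.75 ± 0.11 in WT, edgeR adjusted p = 1.8e-17 and 1.0e-16). Cd300a, another ITIM receptor, was lower in KO LPS than in WT LPS, at 10.2 against 14.8 CPM (-0.53 ± 0.12, edgeR adjusted p = 0.0071), and the ubiquitin ligase Cblb was higher, at 185 against 136 CPM (0.44 ± 0.11, adjusted p = 0.012).

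Of 9 tested partners of FcRn and genes of endosomal recycling, 8 rose and 1 fell in both genotypes with LPS, against 6 and 2 with library totals. Of all genes, 40.0% rose and 46.2% fell in KO and 40.7% and 44.7% in WT. The median of the list was 1.02 in each genotype. Beside B2m, the sorting nexin Snx4 rose (1.73 ± 0.10 in KO and 1.60 ± 0.10 in WT, edgeR adjusted p = 3.6e-12 and 1.3e-11). Rab11fip5, an effector of the recycling GTPase Rab11, fell in KO (-1.26 ± 0.17, edgeR adjusted p = 9.7e-07). No member of this list was called between the genotypes with edgeR, where 2 of 9 under LPS and 3 of 9 in Control had an unadjusted p under 0.05. limma-voom called 2 in Control and none under LPS. Without WT LPS replicate 2, 6 of 9 were higher in KO under LPS and 3 of 9 in Control, where 3344 and 751 of all genes were called against 1294 and 289 with every library, B2m among the 9 in both (0.23, edgeR adjusted p = 0.011 under LPS and 0.040 in Control).

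Of 13 other immunoglobulin receptors, 6 had enough counts to be tested. With LPS 2 rose and 2 fell in KO (of all genes, 40.0% and 46.2%), and 3 rose and 2 fell in WT (40.7% and 44.7%). With library totals 2 rose and 3 fell in both. The median of the list was 0.27 in KO and 0.21 in WT. In Control, 2 of the 6 were higher and 0 lower in KO than in WT (of all genes, 1.89% and 0.525%). The response was more negative in KO for 2 of the 6 and more positive for 0 (2.79% and 1.03%). Fcrla, an intracellular Fc receptor relative known from B cells, averaged 0.659 CPM in KO LPS, 0.977 CPM in WT LPS, 28.5 CPM in KO Control and 16.7 CPM in WT Control. It was higher in KO Control than in WT Control (0.77 ± 0.09, edgeR adjusted p = 5.5e-05) and its response was more negative in KO (-1.32 ± 0.21, adjusted p = 0.0012). Trim21, the cytosolic antibody receptor, averaged 56.9 CPM in KO LPS against 28.4 CPM in KO Control and 53.4 CPM in WT LPS against 27.5 CPM in WT Control (1.00 ± 0.07 and 0.96 ± 0.07, edgeR adjusted p = 1.8e-11 and 4.0e-11). With library totals the log2 fold change of Trim21 was only 0.22 in KO and 0.21 in WT (edgeR adjusted p = 0.00057 and 0.00088).

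Of 15 tested complement receptors and other genes of opsonin uptake, 8 rose and 5 fell with LPS in both genotypes, against 4 and 8 with library totals. Of all genes, 40.0% rose and 46.2% fell in KO and 40.7% and 44.7% in WT. The median of the list was 0.35 in KO and 0.43 in WT. Under LPS, 1 of the 15 was higher and 1 lower in KO than in WT (of all genes, 5.30% and 5.50%). Axl, a receptor for opsonised apoptotic cells, averaged 2659 CPM in KO LPS against 163 CPM in KO Control and 2184 CPM in WT LPS against 157 CPM in WT Control. It was higher in KO under LPS (0.28 ± 0.07, edgeR adjusted p = 0.0095). Itgam, the alpha chain of complement receptor 3 and one of the listed monocyte markers, was lower in KO LPS than in WT LPS, at 51.2 against 85.6 CPM (-0.74 ± 0.12, edgeR adjusted p = 0.00031).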

How the data were processed

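Reads were processed with HISAT, Bowtie2 and the build GRCm39, per the submitters' processing notes. The sources used here give no annotation, versions, counting program or strand setting. Per gene and library, the authors deposited estimated counts without normalization, TPM and FPKM. Of the deposited count values, 6.37% were not whole at a tolerance of 0.001, none among the members. The counts were rounded and tested with edgeR 4.0.16 (R 4.3.3): the filter of edgeR (minimum count 10, total 15), TMM factors, 1 quasi-likelihood model of 18 libraries with a mean per group, 5 contrasts, and Benjamini-Hochberg adjustment over all 11989 genes. DESeq2 1.42.0 and limma 3.58.1 (voom) were alternatives, and the tests were checked on simulated counts. The authors' deposited TPM served for levels between genes and ratios, with FPKM as an alternative. The members and gene lists were chosen with earlier results of these data known. From each pathway list and contrast, up to 3 called genes with the largest fold change and at least 5 CPM in the higher group could be named, and B2m, Tyrobp and Syk whatever their values. A gene that this rule names is not reported here. Genes most like a member were the 3 with the highest Pearson correlation by log2 CPM (prior count 2) and the 3 by deviations. Counts of each pathway list under other scalings and without replicate 2 were added after seeing the data.

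No library was a copy of another: over 32 pairs of replicates, chi-square divided by its degrees of freedom lay at 2.75 to 78.2. The biological coefficient of variation was 0.0934. Of 16614 gene IDs, 16495 were found in the RefSeq table of GRCm38.p6, used for names and promoters only. Shared windows were counted in GENCODE M21 transcripts of GRCm38.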

Additional observations from a re-analysis of the deposited data

Results flagged for a closer look

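In 2 of 24 groups of 4 or 5 libraries, 1 for each gene named here, a library stood far from the others; chance alone flags about 1 in 20 such groups. Fcgr1 in WT LPS replicate 2 was 46.3 CPM against 23.8 to 29.1 CPM in the other 4, a gap of 0.765 of the group's range. Fcgr2b in the same library was 36.0 CPM against 13.5 to 19.7 CPM, a gap of 0.725 of the range. The summed monocyte and macrophage markers of that library, 3208 CPM, were also the highest of all. Without Lyz2 and Apoe the sum was 770 CPM, the highest of the LPS libraries and within the Control range of 751 to 908 CPM. That sum takes in Ccr2, which averaged 59.5 CPM in KO LPS and 495 CPM in KO Control. In WT, Ccr2 averaged 82.6 CPM with LPS and 446 CPM in Control. The part of these markers in the levels was not tested.

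In the interaction test, 2 members were called. The KO response of Fcgrt differed from the WT response by -0.69 (log2). That of Fcer1g differed by -0.59, a call lost with RLE factors (edgeR adjusted p = 0.053) and in 10 of 18 fits that left out a library.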

How the results depend on the processing

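The LPS responses of Fcgr1, Fcgr4, Fcgr2b and Fcgrt kept their direction and call under every alternative run, and 5 to 6 members were called without any 1 library (5 in WT each time). Genotype comparisons depended more on the processing. In Control, members called numbered 1, but 0 with RLE factors (3 at an unadjusted p under 0.05), 2 with DESeq2 and with limma-voom, 3 with the 2 groups alone, 3 without libraries 5 and 7, and 0 to 3 without 1 library. Genes called there numbered 289, but 494 with DESeq2, 895 with the 2 groups alone, 822 without libraries 5 and 7, and 114 to 751 without 1 library. Under LPS the members were 1, but 2 with library totals, with limma-voom and without libraries 5 and 7, 0 with the 2 groups alone (2 unadjusted), and 1 to 2 without 1 library; genes were 1294, but 619 with the 2 groups alone, 3238 without libraries 5 and 7, and 805 to 3344 without 1 library. For the interaction the members were 2, but 1 with RLE factors, 4 without libraries 5 and 7, and 1 to 3 without 1 library; genes were 458, but 813 with DESeq2, 1591 without libraries 5 and 7, and 208 to 1501 without 1 library. Among fits without 1 library, the most genes were called without WT LPS replicate 2 in all 3 of these. Genes called also moved by over 1.5 times without WT Control replicate 1 or 3 or KO Control replicate 2 or 3 in Control, without KO LPS replicate 1 under LPS, and without KO LPS replicate 1, 4 or 5, KO Control replicate 3 or 4, or WT Control replicate 3 or 4 in the interaction. The cause was not tested.

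Signs turned for Fcgr4 in KO against WT with LPS (-0.0512 with library totals, -0.11 to 0.28 without 1 library), Fcgr2b there (-0.53 to 0.0293 without 1 library), Fcer1g there (0.002 without libraries 5 and 7), Fcgr3 in KO against WT Control (-0.01 to 0.14 without 1 library) and with LPS in WT (-0.32 to 0.0161 without 1 library), and Fcer1g with LPS in KO (-0.0533 with library totals).

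Replicate numbers did not pair LPS with Control libraries. Deviations of same-numbered LPS and Control libraries had correlations of -0.22 to 0.27 in WT and -0.11 to 0.11 in KO. Taken in sets of 4, the library numbers held no Control library beside LPS replicate 2, so LPS replicate 3 falls with Control replicate 2. Between KO and WT, replicate numbers and these sets give the same pairs. Their correlations were 0.03 to 0.25 in Control and 0.01 to 0.35 with LPS. With the replicate block, 2 members were called under LPS, Fcgr1 (adjusted p = 0.048) beside Fcgrt. Between LPS and Control libraries, the sets of library numbers gave correlations above 0.1 for all 4 pairs in WT and 2 of 4 in KO. That is a hint from the data and not the design. With the sets as the block, 3 members were called in Control, 3 under LPS and 4 in the interaction. Genes called with it numbered 614 in Control and 882 in the interaction. Counting error weighs most on Fcgr1 and Fcgr4 in Control libraries, with 55 to 95 and 76 to 97 counts in KO and 48 to 76 and 47 to 89 in WT; the other members had at least 89 counts in every library.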
